A study of Mus musculus with 6 samples.

Results

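Hox genes encode homeodomain transcription factors that give cells their position along the body axis and along the limb. In the mouse they lie in 4 clusters, HoxA to HoxD, and are numbered in 13 paralogue groups, from group 1, active at the head end, to group 13, active at the tail end and in the tips of the limbs. In the limb skeleton, groups 9 and 10 are known for the upper segment, group 11 for the middle segment, which in the hind limb holds the tibia and fibula, and group 13 for the hand and foot. Hox proteins bind DNA together with cofactors of the TALE homeodomain class, such as the Pbx and Meis proteins, and their clusters are held active or silent by the trithorax and Polycomb chromatin complexes. The members described here are the genes whose array probes carry a RefSeq accession that maps to a Hoxa, Hoxb, Hoxc or Hoxd symbol. The array held 39 such genes among 20145 named genes, read by 43 probes, and 36 of them entered the tests among 19122 genes.

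RNA came from the tibial growth plate, the cartilage layer through which a long bone lengthens, of male C57BL/6J mice aged 4 weeks, kept under SPF conditions and left untreated. Laser microdissection was used to collect the tissue. The study had 3 genotypes with 2 arrays each, labelled ATF6aKO (knockout of ATF6a, gene Atf6), ATF6bKO (knockout of ATF6b, gene Atf6b) and WT (wild type), and strain, sex, age and housing were the same in all 3. ATF6a and ATF6b are transcription factors held in the membrane of the endoplasmic reticulum and cut free when unfolded proteins collect in that compartment. The labels describe neither the deleted part of each gene nor any cell type restriction of the knockouts, and do not state from how many animals each pair of arrays was made. The p-values therefore measure only the spread between these arrays, which may be technical.

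The 4 knockout arrays shared a slide and were read in the red channel, whereas both WT arrays lay on another slide with a single channel, so slide, channel and genotype cannot be told apart in any comparison with WT. The knockouts could be compared with each other on a common slide. Median local background was 37 for the knockouts and 17 for WT, and 86.9% to 96.7% of spots lay well above background. Atf6 in ATF6aKO differed from WT by -0.15 ± 0.16 on the log2 scale (SE, with n = 2; p from limma's moderated test with Benjamini-Hochberg adjustment over all 19122 genes, here limma adjusted p = 0.498) and Atf6b in ATF6bKO by -0.54 ± 0.21 (limma adjusted p = 0.0824). Since the deleted parts are not given, these values do not check the labels.

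The tissue label was set against marker genes of growth plate cartilage and of other cell types. All 6 growth plate chondrocyte markers (Col2a1, Acan, Col9a1, Matn1, Col10a1 and Sox9) entered the tests, and their summed intensity lay between 14.4 and 16.4 on the log2 scale on the knockout arrays and at 12.5 and 12.7 in WT. Sox9 was well above background on 3 arrays, all of them knockout arrays. All 6 lay above WT on average in both knockouts, and 6 passed the test in ATF6aKO and 5 in ATF6bKO (100% and 83.3%, against 42.7% and 37.6% of all genes), with median log2 differences of 3.57 and 2.38. The 4 erythroid markers tested, of 5, summed to between 9.33 and 9.60 on the knockout arrays and to 14.9 and 12.3 in WT. Hba-a1 alone measured 14.8 and 11.8 in WT. In ATF6aKO and ATF6bKO, Hba-a1 lay at -5.71 and -5.44 from WT and Slc4a1 at -2.32 and -2.19. Hbb-bt and Alas2 also lay below WT but were not called, with Alas2 at -0.14 and -0.44. Osteoblast and osteocyte markers (4 of 6 tested) summed to between 10.02 and 10.4 on the knockout arrays and to 13.7 in WT replicate 1 and 10.8 in WT replicate 2, with Dmp1 and Phex well above background on 1 array each. Of those tested only Bglap2 was called, at -1.78 and -1.36 from WT in ATF6aKO and ATF6bKO. Ibsp measured 13.3 and 8.02 on the WT arrays. Endothelial markers (5 of 5) summed to between 10.4 and 10.6 on the knockout arrays and to 11.8 on both WT arrays. Skeletal muscle markers (5 of 5) summed to between 10.97 and 11.9 on the knockout arrays against 10.4 on both WT arrays. Their members went opposite ways. In ATF6aKO and ATF6bKO, Tnni2 lay at 3.09 and 2.61 from WT, Mylpf at 0.73 and 1.09, and Myh4 at 0.11 and 0.07. Acta1 lay at -1.23 and -1.25 and Ckm at -0.99 and -0.79. Macrophage and myeloid markers (4 of 5) lay between 13.3 and 13.8 against 13.1 on both WT arrays. They were also mixed, with Lyz2 at 2.35 and 1.84 from WT and Csf1r at 0.42 and 0.57. Ptprc lay at -1.03 and -0.80 and Adgre1 at -0.85 and -0.62. Perichondrium, tendon and synovium markers (5 of 5) lay between 10.8 and 11.2 against 10.8 and 10.6. The part that such differences in cell content play in the Hox values was not tested, and in bulk tissue fewer cells of a type and less RNA per cell cannot be told apart.

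The promoters of 3 members are shown because the comparisons turn on these genes. Hoxd9 showed the largest rise from WT, Hoxa7 the largest fall, and Hoxa11 belongs to the paralogue group of the tibial segment and differed in ATF6aKO. The promoter table of RefSeq genes (build GRCm38.p6) held 24 windows for 22 of the Hox genes, each of 300 bases, 250 before the transcription start and 50 after it. The 250 bases before the start are printed 5′ to 3′ on the strand of the gene, in lower case, with the match to TGACGTGG in capitals (here on the opposite strand, hence CCACGTCA). They lie at chr6:52245811-52246060 on the minus strand for Hoxa11, at chr6:52218574-52218823 on the minus strand for Hoxa7 and at chr2:74697513-74697762 on the plus strand for Hoxd9.
Hoxa11: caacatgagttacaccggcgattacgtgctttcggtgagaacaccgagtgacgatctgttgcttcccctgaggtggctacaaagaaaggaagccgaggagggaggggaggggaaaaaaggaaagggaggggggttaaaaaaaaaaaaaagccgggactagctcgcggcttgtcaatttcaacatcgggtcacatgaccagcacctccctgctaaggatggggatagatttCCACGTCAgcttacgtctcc
Hoxa7: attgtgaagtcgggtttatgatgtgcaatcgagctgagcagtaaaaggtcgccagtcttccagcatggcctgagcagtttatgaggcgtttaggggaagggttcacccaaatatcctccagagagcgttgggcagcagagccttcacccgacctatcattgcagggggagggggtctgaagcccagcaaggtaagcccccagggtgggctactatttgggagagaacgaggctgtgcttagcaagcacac
Hoxd9: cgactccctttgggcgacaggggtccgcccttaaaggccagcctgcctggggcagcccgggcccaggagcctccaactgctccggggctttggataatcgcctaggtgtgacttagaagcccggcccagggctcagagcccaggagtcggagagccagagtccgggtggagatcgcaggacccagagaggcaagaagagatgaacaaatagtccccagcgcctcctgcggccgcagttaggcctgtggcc

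TGACGTGG is a sequence known to be bound by ATF6, and it was searched on both strands of every window. It occurred in 1 of the 24 Hox windows, that of Hoxa11, from 20 to 13 bases before the start, and in 0.676% of all 32851 promoter windows. The reverse of that match contains CCACG, the part of the ER stress response element that ATF6 contacts, so those searches overlap. CCACG alone was found in 8 Hox windows (33.3%), against 32.8% of all windows. The full ER stress response element, CCAAT followed 9 bases later by CCACG, occurred in 0 Hox windows and in 0.119% of all. TGACGTCA, the cyclic AMP response element, was likewise in 0 Hox windows, against 1.79% of all. A match describes letters in these windows and is no measure of binding.

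Most Hox genes gave signal in the growth plate. A gene was counted as detected in a genotype when a probe of it was marked by the scanner software as well above background on both arrays. By that count 34 of 39 Hox genes were detected for ATF6aKO, 29 for ATF6bKO and 35 for WT, or 87.2%, 74.4% and 89.7%, against 90.1%, 86.3% and 91.1% of all named genes. On all 6 arrays 29 Hox genes were well above background. Every gene of HoxA was detected in WT (11 of 11), and in both knockouts all but Hoxa4 were. In HoxC 9 of 9 genes were detected in ATF6aKO and in WT and 7 of 9 in ATF6bKO, the others being Hoxc11 and Hoxc13. In HoxD 8 of 9 were detected in each genotype.

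HoxB had the fewest detected genes. Of its 10 members 7 were detected in ATF6aKO, 4 in ATF6bKO and 7 in WT. Hoxb3, Hoxb5, Hoxb7 and Hoxb9 were well above background on all 6 arrays, Hoxb6 on 5, and Hoxb2, Hoxb4 and Hoxb13 on 4 each. Hoxb1, known for the identity of a segment of the hindbrain, was well above background on both WT arrays and on no knockout array. Hoxb8 was well above background on 0 arrays. The other gene of group 8 outside HoxC, Hoxd8, was well above background on 1 array, ATF6bKO replicate 1. Hoxc8 was the only member of group 8 detected throughout.

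**Figure D1:**
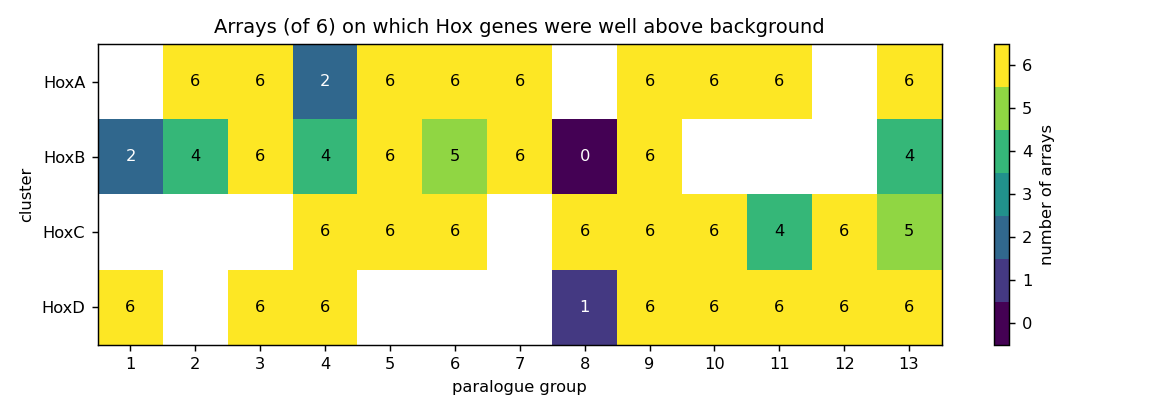
Number of arrays, of 6, on which Hox genes were well above background, with clusters HoxA to HoxD in rows and paralogue groups 1 to 13 in columns; white squares have no gene drawn. Hoxb8 was detected on 0 arrays and Hoxd8 on 1, and 28 of the 38 genes drawn were detected on all 6.

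By position along the axis, the posterior groups 9 to 13 were detected in 15, 13 and 16 of 16 genes in ATF6aKO, ATF6bKO and WT, respectively. The central groups 4 to 8 were detected in 12, 10 and 12 of 15 genes, and the anterior groups 1 to 3 in 7, 6 and 7 of 8. All 10 genes of groups 9, 10 and 11 were thus detected in WT and in ATF6aKO, and in ATF6bKO all but Hoxc11. Hoxb2, Hoxb4, Hoxb6, Hoxb13 and Hoxc13 were well above background on ATF6bKO replicate 1 and not on replicate 2, on which 86.9% of all spots were well above background against 90.3% on replicate 1; with detection on at least 1 array the Hox counts were 35, 35 and 37. Detection in WT and in the knockouts was read over different backgrounds. The brightness of different probes does not rank their genes, so levels are compared below only within a gene.

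In ATF6aKO against WT, 11 of 36 Hox genes (30.6%) passed the threshold, an adjusted p under 0.05, where 42.7% of all genes tested did. Of these, 5 were higher and 6 lower, against 20.3% higher and 22.3% lower among all genes. In ATF6bKO against WT the count was again 11 of 36 (30.6%), with 4 higher and 7 lower, against 37.6% of all genes, 17.3% higher and 20.3% lower. The Hox share lay below that of all genes in both comparisons, and whether the shares differ was not tested. How many of all genes have knockout and WT arrays that do not overlap was not counted. Separation of the arrays, given below for single genes, therefore adds no support where a difference missed the threshold. The comparisons share the WT arrays; 9 genes passed in both, or 81.8% of the calls of each, and 13 passed in either. Over the 36 genes the median log2 difference was -0.30 in ATF6aKO and -0.24 in ATF6bKO, against -0.03 and -0.05 over all genes. With each array scaled to its 75th percentile the split was 6 higher and 5 lower in ATF6aKO, and 10 higher and 5 lower in ATF6bKO, where the median of all genes moved to 0.13 and 0.15. The Hox median in ATF6aKO was then -0.04. It was -0.56 with the processed signal and -0.15 with only genes detected on all 6 arrays, so its size rests on the processing. In the authors' deposited table, in which the knockout values follow the green channel and not the labelled red one, Hoxa4, Hoxa7, Hoxb1, Hoxc4, Hoxc11, Hoxc12 and Hoxd9, which passed in both, had the opposite sign in both comparisons, and Hoxa6 kept its sign. A further 5 genes in ATF6aKO and 4 in ATF6bKO passed in that table but not as given here, with the opposite sign there. Without ATF6aKO replicate 2 the count in ATF6aKO was 6, and without either array of ATF6bKO it was 6 in ATF6bKO.

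**Figure D2:**
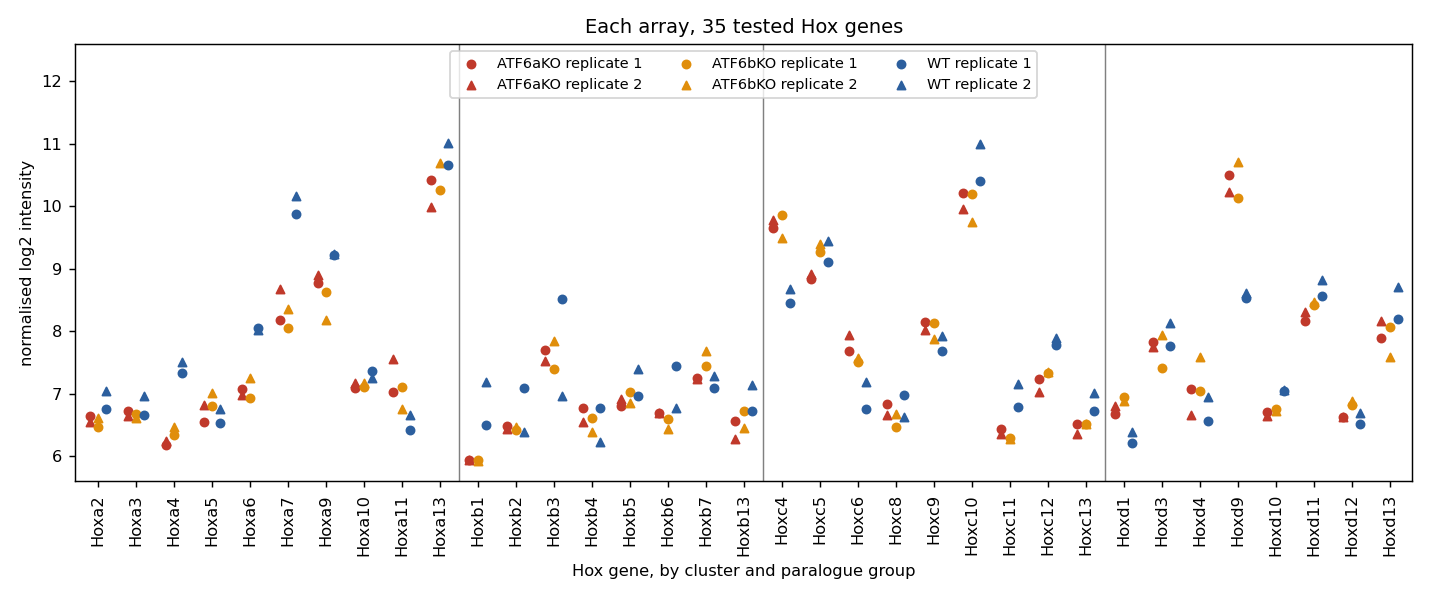
Normalised log2 intensity of 35 of the 36 tested Hox genes on each of the 6 arrays, ordered by cluster (grey lines) and paralogue group. For Hoxc4 and Hoxd9 all 4 knockout arrays lay above both WT arrays, and for Hoxa4, Hoxa6 and Hoxa7 all 4 lay below. Hoxa4 entered the fit only through its WT arrays.

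Hoxd9, a member of a group known for the upper limb segment, showed the largest rise. It measured 10.50 and 10.23 on the ATF6aKO arrays, 10.13 and 10.703 on the ATF6bKO arrays and 8.54 and 8.61 on the WT arrays (normalised log2 intensity). All 4 knockout arrays were more than 1 log2 unit above both WT arrays. The log2 difference from WT was 1.79 ± 0.22 (SE, n = 2 per genotype) in ATF6aKO, a 3.46-fold rise (limma adjusted p = 0.00129), and 1.84 ± 0.22 in ATF6bKO, a 3.58-fold rise (limma adjusted p = 0.00145). The other genes of group 9 did not share this. Hoxa9, which has a role in both limb and blood cell precursors, measured 8.77 and 8.91 on the ATF6aKO arrays, 8.63 and 8.18 on the ATF6bKO arrays and 9.22 and 9.24 on the WT arrays. It was lower in ATF6bKO by -0.82 ± 0.19 (limma adjusted p = 0.0136), a call lost without ATF6bKO replicate 2 (adjusted p = 0.0942), while in ATF6aKO the difference was -0.39 ± 0.19 (limma adjusted p = 0.136). A second Hoxa9 probe was also lower in ATF6bKO, by -0.60 ± 0.16 (limma adjusted p over probes = 0.0228). Hoxc9 was not called, at 0.28 ± 0.18 and 0.20 ± 0.18. Hoxb9 was well above background on every array but was left out of the fit because its spot on WT replicate 1 was marked as an outlier. With outlier spots kept, a setting added after the data were seen, Hoxb9 measured 8.77 and 9.18 on the ATF6aKO arrays, 9.21 and 8.99 on the ATF6bKO arrays and 9.91 and 8.51 on the WT arrays, and differed from WT by -0.23 ± 0.41 and -0.11 ± 0.41 (limma adjusted p = 0.668 and 0.854).

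The genes of group 10, known for the upper hind limb segment, lay lower in the knockouts. None passed the threshold, where 42.7% and 37.6% of all genes did in ATF6aKO and ATF6bKO. Hoxc10, which is active in the hind limb and not the forelimb, measured 10.21 and 9.96 on the ATF6aKO arrays, 10.20 and 9.74 on the ATF6bKO arrays and 10.41 and 11.003 on the WT arrays. Its highest values were the 2 WT arrays, and WT replicate 2 stood 0.60 above replicate 1. The log2 differences from WT were -0.62 ± 0.25 in ATF6aKO (limma adjusted p = 0.0837) and -0.73 ± 0.25 in ATF6bKO (limma adjusted p = 0.0553). Without WT replicate 1 both passed, with adjusted p of 0.0151 and 0.0105. The ATF6bKO difference also passed under 75th percentile scaling (adjusted p = 0.0317). It passed too with only genes detected on all 6 arrays and with a trended and robust variance (adjusted p = 0.047 and 0.0384). Both differences passed in the authors' deposited table, at -3.65 in each. The knockout values of that table follow the green channel, which per the labels carried no labelled sample, so it is no support here. Hoxa10 measured 7.09 and 7.18 on the ATF6aKO arrays, 7.12 and 7.18 on the ATF6bKO arrays and 7.36 and 7.26 on the WT arrays. All 4 knockout arrays lay just below WT, at -0.17 ± 0.15 and -0.16 ± 0.15 from WT (limma adjusted p = 0.389 and 0.43). Hoxd10 measured 6.71 and 6.64 on the ATF6aKO arrays, 6.75 and 6.72 on the ATF6bKO arrays and 7.04 and 7.06 on the WT arrays. Its 4 knockout arrays lay below both WT arrays, by -0.37 ± 0.15 and -0.31 ± 0.15 on average (limma adjusted p = 0.0804 and 0.14). In ATF6aKO Hoxd10 passed with the processed signal, at -0.99 (adjusted p = 0.0165), and in ATF6bKO it passed in the authors' deposited table with the sign turned.

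Group 11, the group of the segment that holds the tibia, had members moving in opposite directions. Hoxa11 measured 7.03 and 7.56 on the ATF6aKO arrays, 7.11 and 6.76 on the ATF6bKO arrays and 6.42 and 6.66 on the WT arrays. It rose in ATF6aKO by 0.75 ± 0.23, or 1.69-fold (limma adjusted p = 0.033), and all 4 knockout arrays lay above WT. In ATF6bKO the difference of 0.39 ± 0.23 did not pass (limma adjusted p = 0.214). Under 75th percentile scaling it was 0.79 and passed (adjusted p = 0.034). It also passed in the authors' deposited table (2.2, adjusted p = 0.00381), which is no support because its knockout values follow the green channel. The rise in ATF6aKO did not pass without ATF6aKO replicate 2 (adjusted p = 0.173) or without WT replicate 1 (adjusted p = 0.0834). ATF6aKO and ATF6bKO did not differ past the threshold in Hoxa11, at 0.36 ± 0.23 with a 95% interval from -0.18 to 0.90 (limma adjusted p = 0.899). Hoxd11, which acts with Hoxa11 in forming the forearm bones, measured 8.17 and 8.31 on the ATF6aKO arrays, 8.43 and 8.47 on the ATF6bKO arrays and 8.57 and 8.82 on the WT arrays. Both WT arrays were the highest, and the differences were -0.46 ± 0.17 and -0.25 ± 0.17 (limma adjusted p = 0.0598 and 0.279). Hoxc11 measured 6.44 and 6.36 on the ATF6aKO arrays, 6.30 and 6.28 on the ATF6bKO arrays and 6.79 and 7.16 on the WT arrays. It was lower than WT by -0.58 ± 0.18 in ATF6aKO (limma adjusted p = 0.0345). In ATF6bKO, where it was not well above background on either array, it was at least 1.61-fold lower (-0.69 ± 0.18, limma adjusted p = 0.0203). The Hoxc11 calls were lost under 75th percentile scaling (adjusted p = 0.266 and 0.287) and when single arrays were left out: either array of the knockout concerned or WT replicate 2 in both comparisons, and either ATF6bKO array also in ATF6aKO. An at-least fold here is the mean of the genotype with signal against, on each array of the other, the higher of the gene's own value and the lowest signal among probes well above background. For Hoxc11, and for Hoxa4, Cdx2 and Evx2 below, the own value was the higher. Their fold is thus the measured one and has the uncertainty of the fit.

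The Hoxa11 probe was printed in 10 repeat spots on each array, as was that of Hoxb1, which gives the spread within an array. Between the 10 spots of Hoxa11 the SD was 0.10 to 0.14 on the log2 scale on the knockout arrays, before quantile normalisation. On the WT arrays it was 0.38 and 0.55, and without the spots marked as outliers, 1 and 2 of 10, it was 0.08 and 0.11. Outlier spots were left out of the Hoxa11 values above. Between arrays of a genotype Hoxa11 differed by 0.53 in ATF6aKO, 0.35 in ATF6bKO and 0.23 in WT, after normalisation. For Hoxb1 the SD between spots was 0.08 to 0.15.

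**Figure D3:**
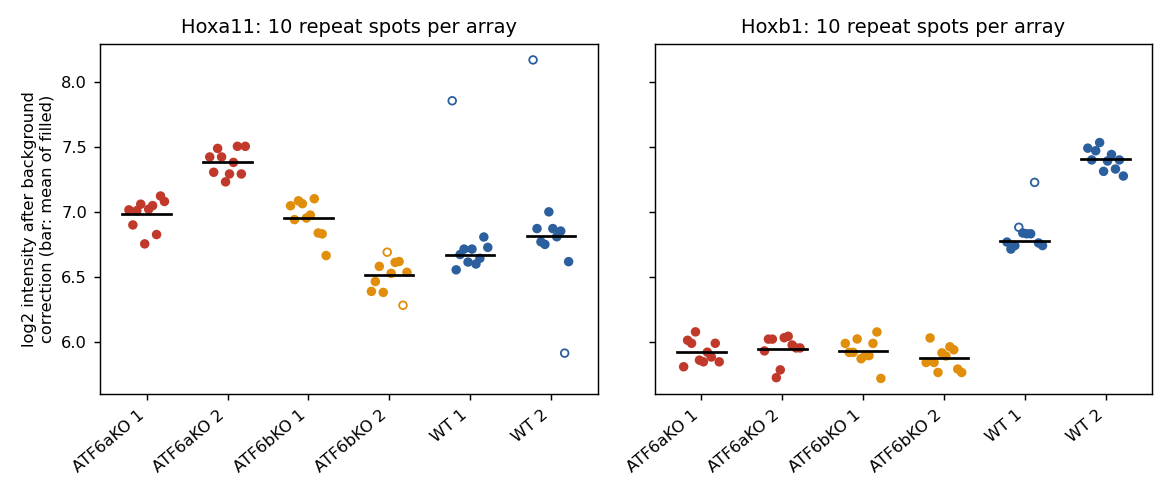
Background-corrected log2 intensity of the 10 repeat spots of the Hoxa11 probe (left) and the Hoxb1 probe (right) on each array, before quantile normalisation; open circles are spots marked as outliers and bars are the mean of the others. On WT replicate 2 single Hoxa11 spots lay at 5.91 and 8.17, both marked as outliers. Every Hoxb1 spot on a knockout array lay below every WT spot. Hoxb1 entered the fit only through its WT arrays, and the knockout and WT arrays differ in channel and background, so this separation is no support for a fall. Repeat spots within an array are not replicates of a genotype.

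Group 12 acts in hair follicles, with Hoxc12, and in the limb tip, with Hoxd12. Hoxc12 measured 7.24 and 7.03 on the ATF6aKO arrays, 7.33 and 7.36 on the ATF6bKO arrays and 7.78 and 7.90 on the WT arrays. All 4 knockout arrays lay below WT, by -0.71 ± 0.16 in ATF6aKO (limma adjusted p = 0.0114) and -0.50 ± 0.16 in ATF6bKO (limma adjusted p = 0.0453). The first call was lost without ATF6aKO replicate 2 (adjusted p = 0.0602), and the second without either ATF6bKO array or either WT array (adjusted p from 0.0717 to 0.185), under 75th percentile scaling, with the processed signal and with a trended and robust variance (adjusted p = 0.147, 0.0847 and 0.0513). Hoxd12 did not pass in either, at 0.02 ± 0.16 and 0.25 ± 0.16, though in ATF6bKO it did under 75th percentile scaling (0.65, adjusted p = 0.0243).

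None of the 4 genes of group 13, known for the digits, passed, where 42.7% and 37.6% of all genes did in ATF6aKO and ATF6bKO. All 4 lay below WT on average in both knockouts. Hoxa13, needed for the digits, measured 10.42 and 9.98 on the ATF6aKO arrays, 10.26 and 10.69 on the ATF6bKO arrays and 10.66 and 11.02 on the WT arrays. The difference was -0.64 ± 0.24 in ATF6aKO (limma adjusted p = 0.0643) and -0.36 ± 0.24 in ATF6bKO (limma adjusted p = 0.263), and the WT and ATF6bKO arrays overlapped. It passed in ATF6aKO under 75th percentile scaling (adjusted p = 0.0417), with a trended and robust variance (adjusted p = 0.0486) and without WT replicate 1 (adjusted p = 0.032). A second Hoxa13 probe showed 0.08 ± 0.20 and 0.11 ± 0.20, so the probes disagreed in sign. Hoxd13 measured 7.90 and 8.17 on the ATF6aKO arrays, 8.06 and 7.59 on the ATF6bKO arrays and 8.20 and 8.71 on the WT arrays. All knockout arrays lay below both WT arrays, and the differences were -0.42 ± 0.24 and -0.63 ± 0.24 (limma adjusted p = 0.198 and 0.0784). The ATF6bKO difference passed without WT replicate 1 (adjusted p = 0.0221). Hoxc13, best known for hair and nails, measured 6.51 and 6.36 on the ATF6aKO arrays, 6.51 and 6.51 on the ATF6bKO arrays and 6.72 and 7.01 on the WT arrays. Its differences were -0.43 ± 0.17 and -0.36 ± 0.17 (limma adjusted p = 0.0776 and 0.139). In ATF6aKO Hoxc13 passed with the processed signal (-1.13, adjusted p = 0.03) and with a normexp offset of 16 (-0.65, adjusted p = 0.0482). Hoxb13 lay between 6.28 and 7.14 over the 6 arrays and was not called. Without WT replicate 1 its difference in ATF6aKO was -0.72. Only in WT were both arrays of Hoxb13 well above background, so it entered the fit through WT alone. Such entry favours genes lower in the knockouts, so its place below WT is no independent support for a fall.

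**Figure D4:**
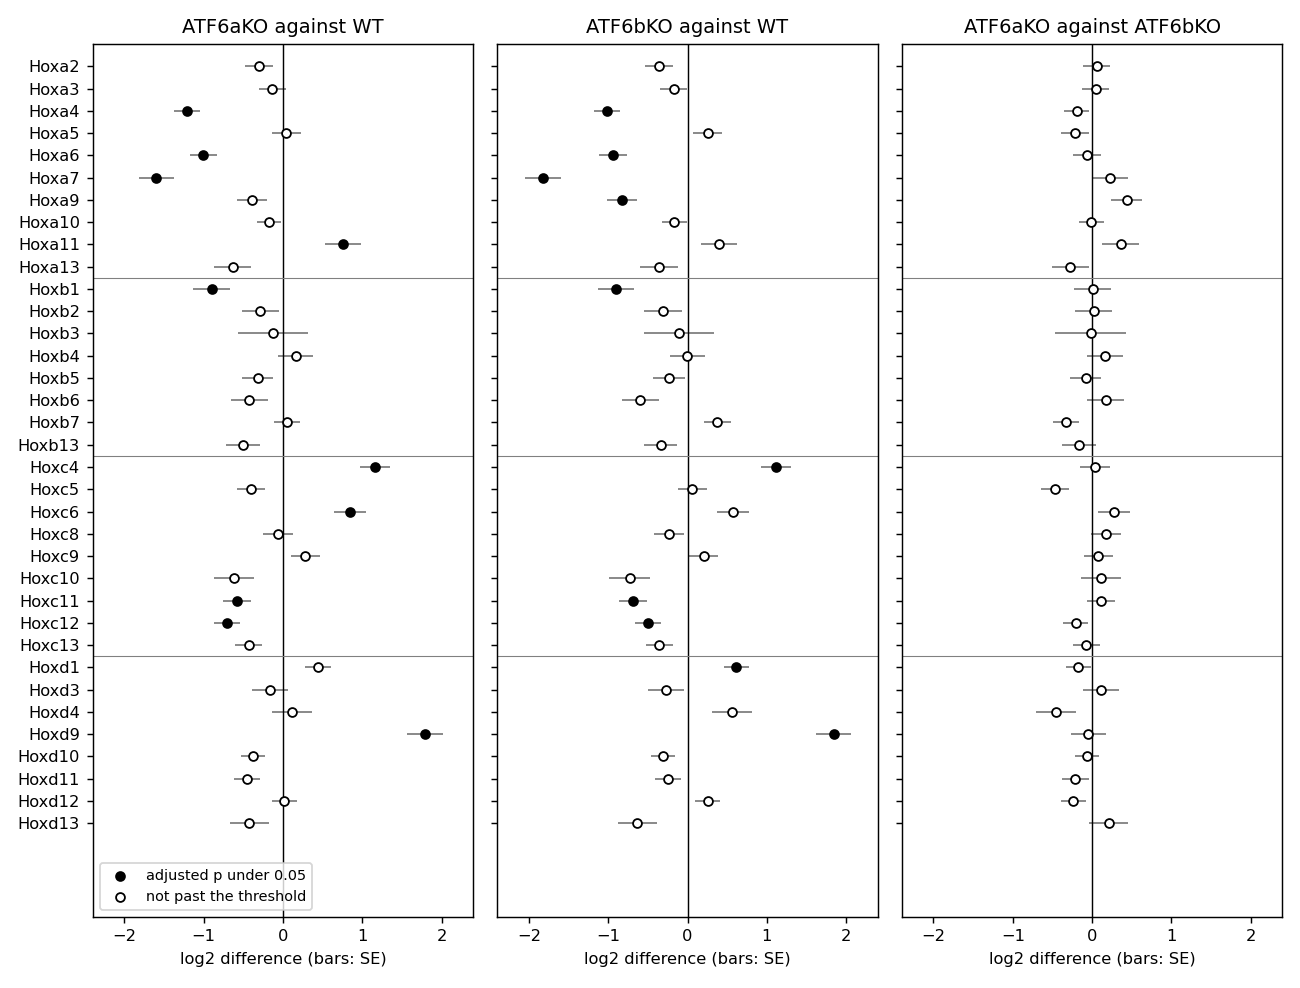
Log2 difference (point) and its standard error (bar) for 35 of the 36 tested Hox genes in the 3 comparisons, ordered by cluster and paralogue group; filled points passed an adjusted p of 0.05. Filled points lie on both sides of 0 in each comparison with WT (4 higher and 6 lower in ATF6aKO, and 3 higher and 7 lower in ATF6bKO, among the genes drawn), and there are 0 between the knockouts.

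Among the central groups, 3 HoxA genes were lower in both knockouts, of which Hoxa4 was favoured by the detection filter, as given below. Hoxc4 rose in both knockouts and Hoxc6 in ATF6aKO. Hoxa7, which patterns the thoracic region, showed the largest fall. It measured 8.18 and 8.68 on the ATF6aKO arrays, 8.06 and 8.36 on the ATF6bKO arrays and 9.88 and 10.17 on the WT arrays. Every knockout array was more than 1 log2 unit below both WT arrays. The difference was -1.60 ± 0.22 in ATF6aKO, a 3.03-fold fall (limma adjusted p = 0.00184), and -1.82 ± 0.22 in ATF6bKO, a 3.54-fold fall (limma adjusted p = 0.00151). Hoxa6, next to Hoxa7 in the cluster, measured 7.08 and 6.98 on the ATF6aKO arrays, 6.93 and 7.26 on the ATF6bKO arrays and 8.05 and 8.02 on the WT arrays. It fell by 1.003 ± 0.17 in ATF6aKO (limma adjusted p = 0.00384) and by 0.94 ± 0.17 in ATF6bKO (limma adjusted p = 0.00574), the second not past the threshold without ATF6bKO replicate 1 (adjusted p = 0.0547).

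Hoxa4, which patterns the neck, was well above background on both WT arrays and on no knockout array. It measured 6.17 and 6.24 on the ATF6aKO arrays, 6.34 and 6.46 on the ATF6bKO arrays and 7.33 and 7.52 on the WT arrays. It was at least 2.32-fold lower in ATF6aKO (-1.21 ± 0.16, limma adjusted p = 0.00156) and at least 2.03-fold lower in ATF6bKO (-1.02 ± 0.16, limma adjusted p = 0.00334). Hoxa4 entered the fit only because both WT arrays passed the detection filter, which favours genes lower in the knockouts. Its p-values are therefore no independent support for a fall. Between Hoxa4 and Hoxa6 lies Hoxa5, which did not follow its neighbours, with differences of 0.04 ± 0.18 and 0.26 ± 0.18 (limma adjusted p = 0.873 and 0.299). Its 6 values lay between 6.54 and 7.01. The ATF6aKO and WT arrays overlapped, while both ATF6bKO arrays lay above both WT arrays. In ATF6bKO it passed under 75th percentile scaling (0.63, adjusted p = 0.0433).

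Hoxc4, a gene of the neck and upper thorax, measured 9.65 and 9.78 on the ATF6aKO arrays, 9.86 and 9.50 on the ATF6bKO arrays and 8.45 and 8.67 on the WT arrays. Every knockout array lay above both WT arrays. The rise was 1.16 ± 0.19, or 2.23-fold, in ATF6aKO (limma adjusted p = 0.00309) and 1.12 ± 0.19, or 2.17-fold, in ATF6bKO (limma adjusted p = 0.00413). Hoxc6, a thoracic gene, measured 7.69 and 7.95 on the ATF6aKO arrays, 7.51 and 7.58 on the ATF6bKO arrays and 6.75 and 7.19 on the WT arrays. It rose in ATF6aKO by 0.85 ± 0.20 (limma adjusted p = 0.0127), which did not pass without ATF6aKO replicate 2 (adjusted p = 0.0783). In ATF6bKO the difference of 0.57 ± 0.20 just missed the threshold (limma adjusted p = 0.0569) and passed under 75th percentile scaling (adjusted p = 0.0205), with the processed signal, with a trended and robust variance, and without WT replicate 2 (adjusted p = 0.0214). Between them in the cluster, Hoxc5 was not called in either comparison, at -0.40 ± 0.18 and 0.06 ± 0.18. In group 6 of ATF6aKO the paralogues thus parted, with Hoxa6 lower and Hoxc6 higher. In group 4 Hoxa4 was lower and Hoxc4 higher, but the detection filter favoured a fall of Hoxa4, so this contrast has the same limit. The remaining central genes tested (Hoxb4, Hoxb5, Hoxb6, Hoxb7, Hoxc8 and Hoxd4) were not called, and their differences from WT lay between -0.60 and 0.56. Of these Hoxb6 passed in both comparisons with the processed signal (-0.96 and -1.42) and without WT replicate 2 (-0.76 and -0.93), and Hoxb7 and Hoxd4 passed in ATF6bKO under 75th percentile scaling (0.60 and 0.88).

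Hoxb1, a gene of group 1, measured 5.95 and 5.94 on the ATF6aKO arrays, 5.95 and 5.93 on the ATF6bKO arrays and 6.51 and 7.18 on the WT arrays. The 4 knockout values lay between 5.93 and 5.95, none of them well above background. Like Hoxa4, Hoxb1 thus entered the fit only through its WT arrays, with the same limit on its p-values. It was at least 1.73-fold lower in ATF6aKO (limma adjusted p = 0.0168) and at least 1.60-fold lower in ATF6bKO (limma adjusted p = 0.0187). These calls were lost under 75th percentile scaling (adjusted p = 0.139 and 0.285), without either array of the knockout concerned and without WT replicate 2 (adjusted p = 0.0616 and 0.0635). Hoxd1, active in sensory neurons, measured 6.68 and 6.81 on the ATF6aKO arrays, 6.95 and 6.88 on the ATF6bKO arrays and 6.21 and 6.39 on the WT arrays. It rose in ATF6bKO by 0.61 ± 0.16 (limma adjusted p = 0.0212), not past the threshold without either ATF6bKO array or WT replicate 1 (adjusted p from 0.082 to 0.122). In ATF6aKO the difference was 0.44 ± 0.16 (limma adjusted p = 0.059), and it passed under 75th percentile scaling (0.83, adjusted p = 0.0102), with a normexp offset of 16 (0.71, adjusted p = 0.0294) and with a trended and robust variance (adjusted p = 0.043). Of groups 2 and 3, 0 of 5 tested genes (Hoxa2, Hoxa3, Hoxb2, Hoxb3 and Hoxd3) passed in either comparison, where 42.7% and 37.6% of all genes did. The differences of these Hox genes from WT lay between -0.36 and -0.11. Without WT replicate 2, Hoxb2 (-0.64 and -0.66) and Hoxb3 (-0.90 and -0.88) passed in both.

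By cluster, 1 of 8 tested HoxB genes passed in each comparison with WT (12.5%). In ATF6aKO and ATF6bKO, 4 and 3 of 9 HoxC genes passed (44.4% and 33.3%), and 1 and 2 of 8 HoxD genes (12.5% and 25%). Of all genes 42.7% and 37.6% passed, so the HoxC shares lie near the background. The count for HoxA is not reported here, and whether any of these shares differ was not tested. Both calls in HoxD, Hoxd9 and Hoxd1, were rises. The single HoxB call, Hoxb1, was a fall.

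ATF6aKO and ATF6bKO, read on the same slide, did not differ past the threshold in any Hox gene (limma; 0 of 36, with 0% of all 19122 genes called). At an unadjusted p under 0.05 there was 1 Hox gene of 36, Hoxc5, and 1169 of all genes. Hoxc5 measured 8.83 and 8.91 on the ATF6aKO arrays, 9.27 and 9.40 on the ATF6bKO arrays and 9.10 and 9.44 on the WT arrays. Both ATF6aKO arrays lay below both ATF6bKO arrays, by -0.46 ± 0.18 with a 95% interval from -0.88 to -0.05 (limma adjusted p = 0.754). Over the 36 genes the differences ran from -0.46 to 0.43, and the 95% intervals of 34 genes lay within 1 log2 unit of 0. The exceptions were Hoxb3 (-1.05 to 1.02) and Hoxd4 (-1.03 to 0.13). Genes past the threshold in only 1 comparison with WT did not differ between the knockouts past the threshold either: Hoxa9 at 0.43 ± 0.19, Hoxc6 at 0.27 ± 0.20 and Hoxd1 at -0.17 ± 0.16 (limma adjusted p = 0.818, 0.922 and 0.939). A p that misses the threshold does not show the knockouts to be alike.

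The arrays of a genotype also differed among themselves. The median size of the difference between replicate 1 and replicate 2 over the 36 Hox genes was 0.13 in ATF6aKO, 0.19 in ATF6bKO and 0.29 in WT, against 0.22, 0.17 and 0.20 over all genes. In WT, 8 of 36 Hox genes were higher in replicate 1. The share over all genes was not counted, so this number does not set the Hox genes apart. The 8 tested HoxB genes divided into 4 higher and 4 lower in WT replicate 1. Hoxb3 measured 7.70 and 7.52 on the ATF6aKO arrays, 7.40 and 7.85 on the ATF6bKO arrays and 8.51 and 6.96 on the WT arrays, so the WT arrays stood 1.55 apart, on either side of all 4 knockout arrays. A second Hoxb3 probe was well above background on WT replicate 1 alone and was not fitted, so this gap rests on a single probe. Hoxb6 was 0.67 higher in WT replicate 1. Hoxb2 and Hoxb4 were also higher there, but were not well above background on WT replicate 2, so their gaps have no exact size. Hoxb9, with its outlier spot kept, followed the same direction. Hoxb1, Hoxb5, Hoxb13 and Hoxb7 went the other way, by -0.67, -0.44, -0.42 and -0.18. WT replicate 1 was also the array with the higher summed level of osteoblast (13.7 against 10.8) and erythroid markers (14.9 against 12.3). Ibsp (13.3 against 8.02), Sp7 (10.3 against 7.97), Hba-a1 (14.8 against 11.8) and Hbb-bt (8.90 against 6.58) were higher there. Bglap2 and Alas2 were higher there by less, and Slc4a1 and Sost were not higher. The part of osteoblasts and erythroid cells in the HoxB values was not tested.

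**Figure D5:**
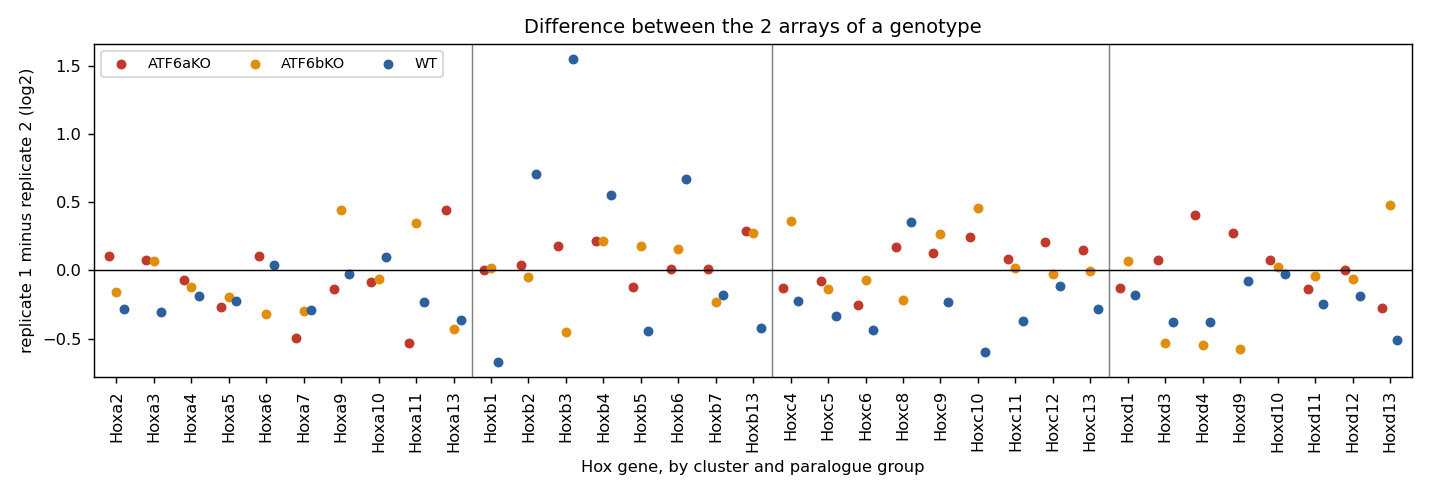
Replicate 1 minus replicate 2 (log2) for 35 of the 36 tested Hox genes in each genotype, ordered by cluster and paralogue group. The widest gap is that of Hoxb3 in WT, at 1.55, and Hoxb2, Hoxb4 and Hoxb6 also lie above 0 in WT while Hoxb1, Hoxb5, Hoxb7 and Hoxb13 lie below.

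Among the TALE cofactors 8 of 9 were tested. In each knockout 5 of them were lower and 0 higher (62.5% called, against 42.7% and 37.6% of all genes), with median log2 differences of -0.72 and -0.68. Without ATF6aKO replicate 2 the count in ATF6aKO was 2, and in ATF6bKO it was 2 without its replicate 1 and 3 without its replicate 2. In the authors' deposited table, whose knockout values follow the green channel, the direction turned, with 3 higher and 2 lower and medians of 1.2 and 1.1. Meis3 measured 9.92 and 9.61 on the ATF6aKO arrays, 10.06 and 9.91 on the ATF6bKO arrays and 12.04 and 12.31 on the WT arrays, a fall of 2.41 and 2.19 log2 units. Pbx4 fell by 0.96 and 1.01, Meis1 by 0.87 and 0.78, and Pknox2 by 0.75 and 0.90. Meis2 was at 0.20 and 0.02 from WT and was not called.

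Limb patterning genes included both rises and falls, 2 of each in both knockouts, among 11 tested members of 17 (36.4%, against 42.7% and 37.6% of all genes, a share near the background). Without WT replicate 1 the counts were 4 higher and 3 lower in ATF6aKO and 3 of each in ATF6bKO. Tbx3, a T-box factor of the limb margins, was 2.31 and 2.75 log2 units higher in ATF6aKO and ATF6bKO, and Gli3, a transcription factor of the hedgehog pathway, 1.36 and 1.33 higher. Lmx1b, which sets the dorsal side of the limb, fell by 2.23 and 1.95, and Msx1 by 0.87 and 0.67. Pitx1, the hind limb identity gene, was well above background on 4 arrays, 2 of WT and 2 of the knockouts. It measured 6.64 and 6.79 on the ATF6aKO arrays, 6.30 and 6.43 on the ATF6bKO arrays and 6.21 and 6.53 on the WT arrays, and was not called. Tbx4, also of the hind limb, was well above background on 1 WT array and was not tested. The forelimb gene Tbx5 was well above background on all 6 arrays, between 7.10 and 7.83, and was not called. Shox2, which acts in the upper limb bones, was at -0.11 and -0.57 from WT and was not called either.

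Of the regulators of Hox clusters, here chromatin genes and the transcription factors Cdx1, Cdx2 and Cdx4, 16 of 18 were tested. In each comparison 2 passed, all lower, or 12.5%, against 42.7% and 37.6% of all genes. Under 75th percentile scaling 4 were higher and 1 lower in ATF6aKO, and 5 higher and 1 lower in ATF6bKO, so the direction of this list rests on the scaling. With the processed signal 2 were higher and 5 lower in ATF6aKO and 1 higher and 3 lower in ATF6bKO. With a normexp offset of 16 the ATF6bKO count was 1. The authors' deposited table, whose knockout values follow the green channel, had 9 higher and 0 lower in each. The count in ATF6aKO was 1 without any one knockout array. In ATF6bKO it was 0 without either of its own arrays and 1 without either ATF6aKO array. Men1, a subunit of a trithorax-type complex and the only chromatin gene called, fell by 0.97 and 0.53. Cdx2, not well above background on either ATF6aKO array, was at least 1.63-fold lower there (limma adjusted p = 0.0355), and Cdx4 fell by 0.57 in ATF6bKO; both are regulators of Hox genes in the embryo. None of the Polycomb genes tested was called. Of 4 other transcripts from the edges of the Hox clusters, a list chosen after the content of the array was known, 3 were tested. Evx2, next to Hoxd13, was well above background on neither ATF6aKO array and on 1 of the ATF6bKO arrays. It was at least 1.73-fold lower than WT in ATF6aKO (limma adjusted p = 0.0112) and passed as lower in ATF6bKO too (limma adjusted p = 0.0395). Evx2 and Cdx2 both entered the fit only through their WT arrays, so the limit given for Hoxa4 holds for their p-values. The antisense RNA Hoxa11os was lower in ATF6aKO by -0.69 (limma adjusted p = 0.0387), where Hoxa11 was higher, and in ATF6bKO it was at -0.59 (limma adjusted p = 0.0689). Between the knockouts 0 genes of these 4 lists passed.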

How the data were processed

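Total RNA from laser-microdissected tibial growth plate was amplified, labelled with Cy5 and hybridised to Agilent mouse arrays, per the labels' protocols. Spot intensity values were deposited as scanner output of Agilent Feature Extraction (version 10.7.1.1 in the submitters' processing notes). The extraction of the knockout arrays used 2 channels set for Cy5 only, per the file headers, so their red channel was taken, and the WT arrays had 1 channel, named green. The authors' deposited value table holds log2 values that follow the green channel (differences between arrays, r of at least 0.9988) and served only as an alternative; how it was centred is not known. Its column medians were 0.2, 0.1, 0, 0.227, -0.5 and -0.5.

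Median spot intensities were background-corrected (normexp, offset 50) with limma 3.58.1 in R 4.3.3, taken to log2 and quantile normalised, without control and outlier spots (288 of 55681 probes were lost). Accessions were matched to symbols through a RefSeq gene table of GRCm38.p6, which named 26582 probes. Probes were kept if 1 genotype or more had both its arrays well above background, and the brightest of them represented the gene. The fit (lmFit, eBayes) used all 6 arrays and 19122 genes, with Benjamini-Hochberg adjustment over all of them and a threshold of 0.05, and was tested on simulated data. The number of arrays limits the precision.

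The members and gene lists were chosen with earlier results of these data known. The rule named, array by array, each Hox gene past the threshold in any comparison and the tested genes of groups 10, 11 and 13 of HoxA, HoxC and HoxD, and gave the others by counts and ranges; Hoxa5, Hoxb3, Hoxb9, Hoxc5 and the largest differences between replicates were singled out after their values were seen. Of the other lists, members past the threshold were named, with Pitx1, Tbx4, Tbx5, Meis1, Meis2 and Shox2. A few genes that the rule covers count in the totals but are not reported here. Alternatives covered the scaling, background correction, offset, probe choice, filter, variance model, replicate number and each array left out. Promoter windows came from RefSeq.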

Additional observations from a re-analysis of the deposited data

Results flagged for a closer look

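The green channel of the knockout arrays, which carried no labelled sample per the labels, was not used in any comparison. Hox spots well above background there made up 3.28% and 4.92% of 61 spots in ATF6aKO and 1.64% in both ATF6bKO arrays, or 2, 3, 1 and 1 spots. The negative control spots of the same arrays gave 0.325%, 0.974%, 0.649% and 0.649% of 308, and all spots gave 8.45% to 12.5%. These values were singled out because they stand above the negative controls in a channel outside the comparisons. The number of Hox spots is small, and the source of the signal was not tested.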

How the results depend on the processing

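Over all 36 Hox genes, no direction turned for a gene that passed as reported or in the alternative, except in the authors' deposited table, in which the knockout values follow the green channel. There 12 such genes turned in ATF6aKO and 11 in ATF6bKO, of which 7 in each had passed as reported. The others passed in that table and not as reported: Hoxa2, Hoxb2, Hoxb13, Hoxc8 and Hoxc13 in ATF6aKO, and Hoxb2, Hoxb4, Hoxc8 and Hoxd10 in ATF6bKO. In all, 12 and 11 Hox genes passed in it that did not pass as reported. There the log2 differences in ATF6aKO were 1.21 for Hoxa4, 1.05 for Hoxa7, 1.40 for Hoxb1, 2.15 for Hoxc11, 1.76 for Hoxc12, 2.63 for Hoxc13, -0.52 for Hoxc4 and -1.25 for Hoxd9. In ATF6bKO they were 0.18 for Hoxa4, 1.35 for Hoxa7, 1.35 for Hoxb1, 1.0 for Hoxc11, 1.12 for Hoxc12, -0.74 for Hoxc4, 1.75 for Hoxd10 and -1.15 for Hoxd9. The cause was not tested. The green channel carried no labelled sample per the labels, so that table neither supports nor overturns a call. That table gave 12 Hox genes higher and 3 lower in ATF6aKO and 10 and 3 in ATF6bKO, where its median over all genes was 0.85. In every other alternative in which they were fitted, 6 of the 11 calls held in ATF6aKO, among them Hoxa4, Hoxa6, Hoxa7, Hoxc4 and Hoxd9, and 5 of 11 in ATF6bKO, among them Hoxa4, Hoxa7, Hoxc4 and Hoxd9. With single arrays left out the count of Hox genes past the threshold ran from 6 to 13 in ATF6aKO and from 6 to 12 in ATF6bKO, and it stayed 0 between the knockouts. A genotype left with 1 array takes its spread from the others. Replicate numbers did not pair the arrays, since the deviations of same-numbered arrays correlated at -0.156, -0.074 and 0.197. With the replicate block the counts were 10, 11 and 0. Hoxc11 in ATF6aKO (adjusted p = 0.0513) and Hoxc12 in ATF6bKO (0.0704) no longer passed, and Hoxc6 in ATF6bKO did (0.0488). No other Hox call changed, and in the list of Hox cluster regulators the calls in ATF6bKO went from 2 to 0. Detection on at least 1 array gave 35, 35 and 37 Hox genes, and detection by every probe gave 33, 28 and 34. With only genes detected on all 6 arrays the counts were 8 and 9, and Hoxa4, Hoxb1 and Hoxc11 were not fitted. Under the filter of the main fit, Hoxa4, Hoxb1 and Hoxb13 entered through WT alone. The background of the knockout arrays, 37 against 17, limits what dim genes can show.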
